A study of Rattus norvegicus with 12 samples.

Results

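Collagen transcripts were examined in cells of the rat cervix from non-pregnant (NP) rats and from rats on day 21 of pregnancy (D21), the day that usually precedes birth. The collagens were all probes of the array, other than control spots, whose gene name was Col followed by a chain number of the form Col4a1. This gave 35 genes, read by 46 of the 30367 probes on the array. The 12 arrays each held the cervix of 1 adult female Sprague Dawley rat, with 3 rats in each of 4 groups. Whole cervix came from D21 rats 5, 6 and 7 and from NP rats 8, 9 and 10. Cervix depleted of macrophages (Mφs) came from other animals, D21 rats 1, 2 and 4 and NP rats 5, 6 and 7, and no rat gave more than 1 array. The NP rats were in proestrus. In all 4 groups the minced tissue was dispersed with collagenase B into a cell suspension, so that what was measured was RNA of the released cells and not collagen laid down in the tissue. Mφs were removed from the depleted suspensions with the ED1 antibody, which binds the Mφ antigen CD68, and magnetic beads. The whole suspensions were frozen without antibody or beads, so loss of Mφs and the handling itself cannot be told apart.

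Collagens are secreted proteins in which chains wind into a triple helix, where a glycine recurs in step along every chain (the Gly-X-Y repeat). Fibrillar collagens, mainly types I, III and V, form the tensile fibres of the cervical stroma, and the loosening of these fibres before birth lets the cervix dilate. Type IV collagens form the sheet of the basement membrane under epithelium and around vessels and muscle cells. Type VI makes beaded filaments between the fibres, type VII anchors the epithelium to the stroma beneath it, and type XVII is a transmembrane chain of the hemidesmosomes of basal epithelial cells.

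Probes of 3 collagen genes are shown because their position within the transcript bears on the results below. They are given 5′ to 3′ as the array files hold them, with positions in the rn4 build. In the probe of the Col4a1 triple helix, at chr16:83146135-83146194, capitals mark the glycine codons, 6 of them in step with the Gly-X-Y repeat. In the probes of Col1a1 (chr10:83637956-83638015) and Col1a2 (chr4:29428206-29428265), capitals mark the stop codon that ends the chain, and for Col1a2 only the coding bases are shown.
Col4a1 (A_64_P293606): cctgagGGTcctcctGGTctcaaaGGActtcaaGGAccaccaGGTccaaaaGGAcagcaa
Col1a1 (A_44_P350521): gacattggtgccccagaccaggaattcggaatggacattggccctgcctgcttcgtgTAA
Col1a2 (A_43_P12783): ggccctgtctgtttcaaaTAA

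Over the last 21 coding bases Col1a1 and Col1a2 have 16 in common. The other Col4a1 probe, A_64_P149501 at chr16:83157776-83157835, lies 11641 bases downstream in the genome, introns included.

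Col4a1 and Col4a2 are neighbours that are read in opposite directions from start sites next to each other, and the chains they encode assemble together. In RefSeq (GRCr8) only 76 bases, chr16:84885521-84885596, lie between the 2 start sites. The pair was chosen because both genes were lower after Mφ removal in NP rats, as were most collagen probes tested. In D21 rats the probes of Col4a1 disagreed. The bases are shown on the strand of Col4a1, with capitals on the GC box, the letters GGGCGG, here on the opposite strand.
Col4a1 to Col4a2: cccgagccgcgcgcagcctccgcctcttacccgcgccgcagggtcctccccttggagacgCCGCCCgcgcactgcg
On either strand GGGCGG occurred in 33.1% of the 33469 RefSeq promoters, each from 250 bases before to 50 bases after a start, and in 16 of the 28 promoters of the collagen genes found there. Also counted were CCAAT, in 37.5% of all promoters and 6 of the 28, and TATAAA, in 14.2% and 4 of the 28.

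Each level below is the log2 intensity of a probe minus the log2 of the 75th percentile of its array, so 0 is that percentile and a difference of 1 is a 2-fold change. Levels of different probes cannot be set against each other, because probes bind with unequal strength. Of the 46 collagen probes, 20 were rated well above background on all 12 arrays by the scanner's software, 16 on some arrays and 10 on none. The test took only probes with that rating on every array of 1 or both groups compared, and 26 collagen probes entered at least 1 comparison. It was called where the Benjamini-Hochberg adjusted p of limma, over all probes tested, was under 0.05. The replicates are separate rats.

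**Figure D1:**
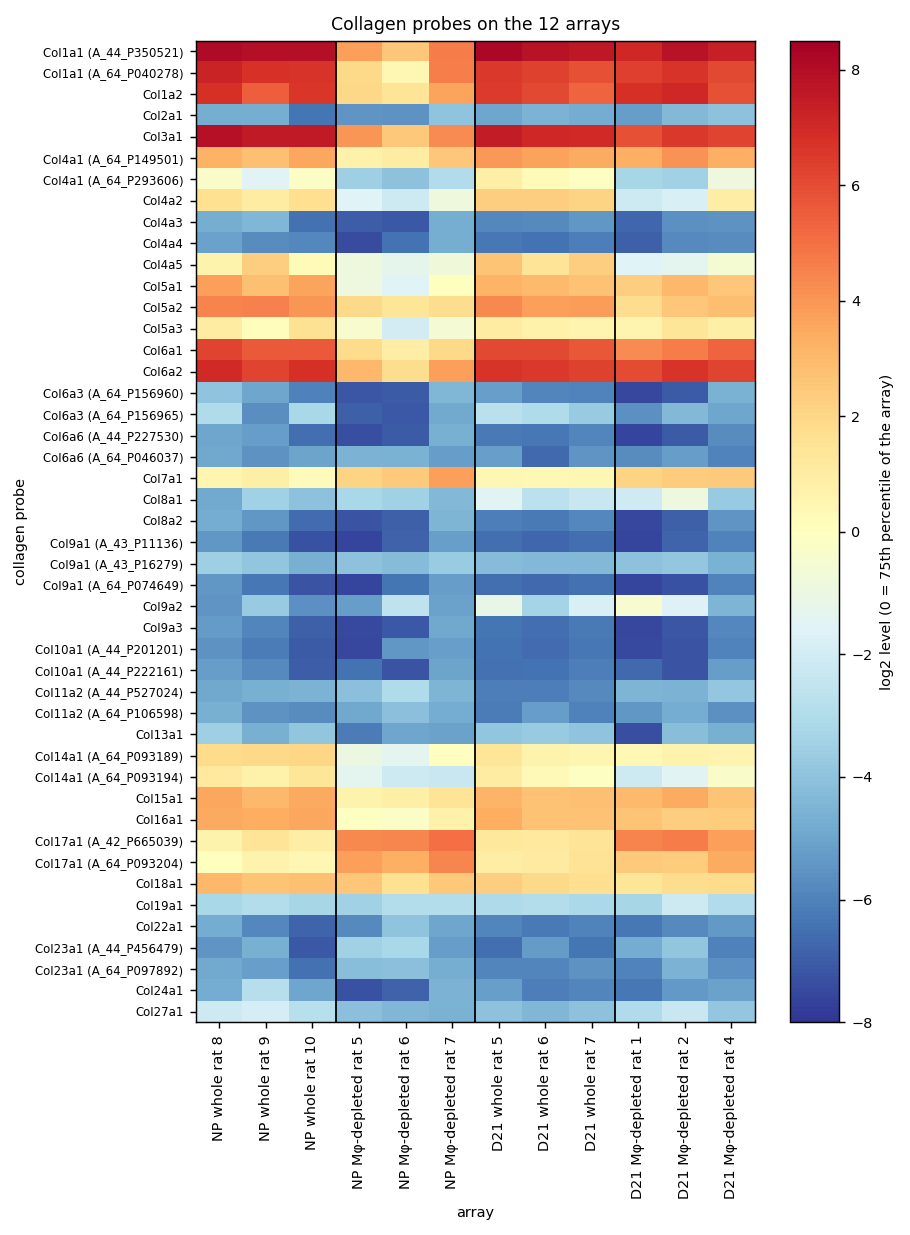
Log2 level of the 46 collagen probes (rows) on the 12 arrays (columns, by group and rat), with 0 at the 75th percentile of each array. Col1a1, Col1a2, Col3a1, Col6a1 and Col6a2 read lowest in the 3 Mφ-depleted NP arrays, Col17a1 and Col7a1 read higher in all 6 Mφ-depleted arrays than in the whole ones, and 10 probes were well above background on no array.

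Several arrays stood apart. Scans were made on 3 days from 4 slides, and all 6 whole arrays were scanned on day 3 together with the depleted arrays of D21 rat 4 and NP rat 7. All whole D21 arrays lay on slide 4, with whole NP rat 10 and no depleted array. No slide held both a whole and a depleted D21 array, so slide and Mφ removal cannot be told apart in D21 rats. The 75th percentile of intensity ran from 290 to 1171 and 20 to 32 collagen probes an array were well above background. Labelled RNA was amplified from the poly(A) end of the transcript, and for 608 other genes with an upstream and a downstream probe the level of the upstream probe relative to the downstream one was compared between arrays, a check chosen after seeing the data. With each gene centred on its mean over the arrays, the median was -0.79 in D21 rat 1 and -0.98 in D21 rat 2, both Mφ-depleted. The other 10 arrays ranged from -0.18 to 0.41, among them 0.11 in D21 rat 4. Upstream probes thus read low against downstream probes in the depleted cervix of D21 rats 1 and 2, and the collagen calls that rest on them are given without both rats as well.

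Removal of Mφs was visible in the RNA. The 10 Mφ markers, such as Csf1r and C1qa, had a mean level of 0.75 to 1.53 on the 6 whole arrays and of -4.54 to -3.52 on the 6 depleted ones. Adgre1, Mpeg1 and Mrc1 were well above background on no depleted array. Markers of other cells differed as well. The 9 fibroblast markers other than collagens, such as Dcn, had a mean level of 2.58 to 2.78 in whole NP cervix and of -1.95 to -0.94 after depletion, against 2.37 to 2.67 and 0.54 to 1.43 in D21 rats. The 10 smooth muscle markers went from a range of 4.40 to 4.84 to one of -0.09 to 0.40 in NP rats, and from 3.62 to 4.04 to 0.92 to 2.04 in D21 rats. The 10 basal epithelial markers, such as Krt5, were higher in depleted cervix, at 2.33 to 4.15 against 0.40 to 1.39 in NP rats and 2.38 to 3.45 against 1.18 to 1.94 in D21 rats. In such bulk samples fewer cells of a type and less RNA per cell cannot be told apart.

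Mφ removal went with a far lower level of most stromal collagens in NP rats, and with little difference in most of them in D21 rats. In NP rats 22 collagen probes were tested, of which 18 were called higher in whole than in depleted cervix and 3 lower, where 32% of all probes tested were called (16.7% higher and 15.3% lower). All 22 had no overlap between the groups, as did 46.8% of all probes. In D21 rats 6 of 25 probes were called higher in whole cervix and 3 lower, where 23% of all probes were called (13% higher and 10% lower). The median difference of the probes tested was 2.77 in NP rats and 0.31 in D21 rats, and that of all probes was -0.02 in each. Of the 22 probes in NP rats 20 were well above background on all 6 arrays, and the other 2, Col27a1 and the upstream probe of Col4a1, were tested through the whole group. On scan day 3, with 1 depleted array each in NP and D21 rats, all 21 calls in NP rats kept their direction (-4.03 to 3.90), as did all 9 in D21 rats (-2.46 to 2.64). These arrays are part of those that made the calls. In D21 rats they are the arrays left without rats 1 and 2, so the checks are not separate. None of the 9 calls in D21 rats was left in the fit with a slide block, nor by the methods' t-test once adjusted. Without depleted D21 rat 1 or rat 2 the 6 higher calls became 3. The fit without both leaves 1 depleted D21 array, and far fewer of all probes were called there. The 6 were not called in it, and their differences lay between 0.62 for Col6a1 and 2.64 for Col4a5.

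The difference with Mφ removal was itself tested between D21 and NP rats as an interaction, and 10 of 26 probes were called, each with a smaller whole minus depleted difference in D21 than in NP rats, where 2.34% of all probes were called (1.83% in that direction). They were the fibrillar chains Col1a1, Col1a2, Col3a1, Col5a1 and Col27a1, the type VI chains Col6a1 and Col6a2, and Col14a1, Col15a1 and Col16a1. None was called in the other direction, in which 1 had an unadjusted limma p under 0.05. Col27a1 was not well above background in whole D21 cervix, so its interaction rests on signals without that rating. Without D21 rats 1 and 2, 1 depleted D21 array is left, which is assumed to vary like the others. Far fewer of all probes were called in that fit, and most of the 10 were not. The 10 interactions lay between -3.88 for Col1a2 and -2.10 for Col15a1. With slide as a block none of the 10 was called, and without whole D21 rat 7 there were 5 calls. How many of all probes these fits called was not counted. On scan day 3 alone, with 1 depleted array each in NP and D21 rats and without a test, the 10 interactions lay between -3.28 for Col6a1 and -1.63 for Col15a1. All had the same sign, on arrays that also made the calls.

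In depleted cervix 11 of 23 collagen probes were called higher in D21 than in NP rats and none lower, where 4.23% of all probes were called (3.34% higher and 0.891% lower). At an unadjusted limma p under 0.05 14 were higher and 1 lower, and the methods' t-test with adjustment called none in either direction. With D21 rats 1 and 2 left out, far fewer of all probes were called, and most of the 11 were not. The differences of the 11 probes then lay between 1.64 for Col15a1 and 3.76 for Col6a1. The comparison shares its arrays with both depletion comparisons, so it is no separate evidence. In whole cervix 0 of 26 probes were called higher in D21 than in NP rats and 1, Col27a1, lower, where 5.78% of all probes were called (4.02% higher and 1.76% lower). At an unadjusted limma p under 0.05 there were 3 higher and 3 lower, and the methods' t-test with adjustment called none. The median difference was -0.12, and -0.06 for all probes. Fitted on the 6 whole arrays alone, limma called 3 higher and 3 lower. The share of all probes was not counted for that fit, for the methods' t-test or at the unadjusted p, so these counts have no background beside them.

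**Figure D2:**
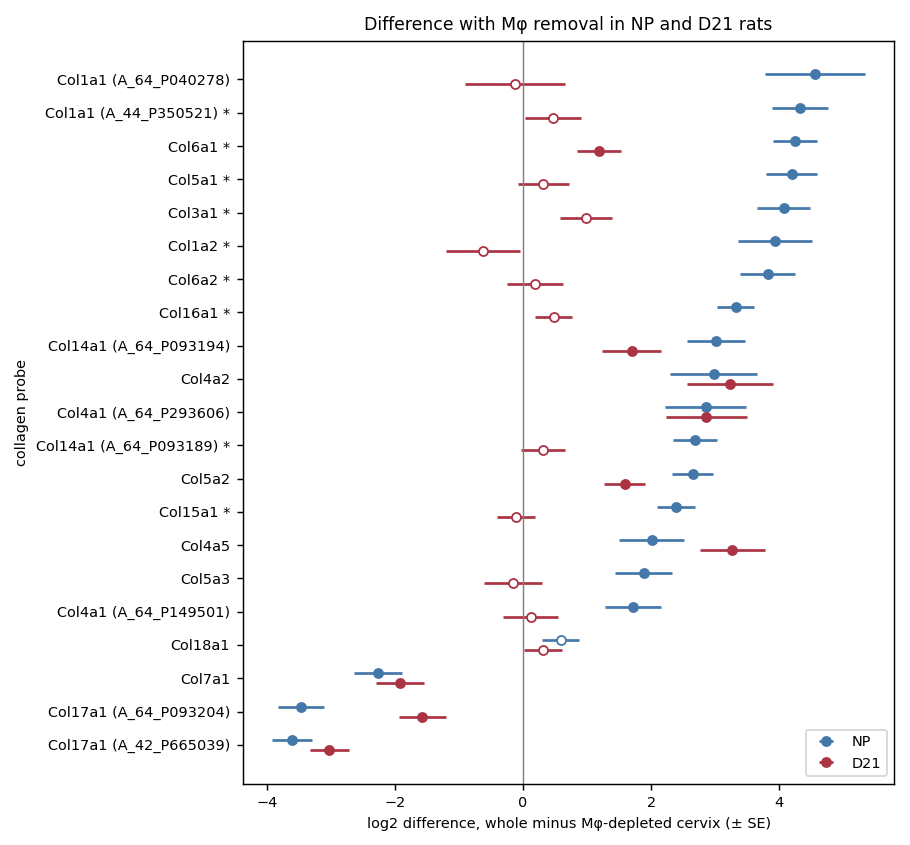
Log2 difference of whole minus Mφ-depleted cervix (x axis, ± SE from limma, 3 rats in each group) for the 21 collagen probes tested in both NP and D21 rats, with filled points for an adjusted p under 0.05 and a star where the difference between NP and D21 rats was called. Col1a1 stood at 4.33 in NP and 0.46 in D21 rats, whereas Col4a2 stood at 2.97 and 3.23 and Col17a1 at -3.61 and -3.02.

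Type I collagen, the main fibre of the cervix, was far lower after Mφ removal in NP rats, and neither of its chains was called in D21 rats. Col1a1, which encodes its main chain, had levels of 8.04, 7.93 and 7.96 in whole NP cervix and of 3.76, 2.53 and 4.66 after Mφ removal. In D21 rats the levels were 8.21, 7.81 and 7.60 in whole and 7.06, 7.79 and 7.37 in depleted cervix. The NP groups were far apart and the D21 groups overlapped. The whole minus depleted difference was 4.33 ± 0.44 (SE, n = 3 a group, limma adjusted p = 3.35e-05) in NP rats, a 20.0-fold difference, and 0.46 ± 0.44 (limma adjusted p = 0.454) in D21 rats, and the interaction was -3.86 ± 0.63 (adjusted p = 0.0115). The other Col1a1 probe (A_64_P040278) differed by 4.56 in NP and -0.13 in D21 rats, and its interaction of -4.69 missed the threshold (adjusted p = 0.0542). Its depleted NP levels of 1.90, 0.41 and 4.62 were widely spread.

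Col1a2, the partner chain of Col1a1, had levels of 6.78, 5.48 and 6.58 in whole and 1.98, 1.42 and 3.65 in depleted NP cervix. In D21 rats it had 6.47, 6.07 and 5.31 in whole and 6.79, 7.05 and 5.90 in depleted cervix, with overlap. The difference was 3.93 ± 0.57 (adjusted p = 0.000391) in NP rats and -0.63 ± 0.58 (adjusted p = 0.437) in D21 rats. The interaction was -4.56 ± 0.82 (adjusted p = 0.0183), and within scan day 3 it was -2.58.

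Col3a1, whose chain forms the thinner fibres mixed with type I, had levels of 7.86, 7.52 and 7.56 in whole and 4.02, 2.46 and 4.25 in depleted NP cervix. The D21 levels were 7.49, 7.09 and 7.00 in whole and 5.87, 6.57 and 6.19 in depleted cervix. Here the D21 groups did not overlap, but the difference of 0.98 ± 0.41 missed the threshold (adjusted p = 0.1), against 4.07 ± 0.41 in NP rats (adjusted p = 3.25e-05). The interaction was -3.08 ± 0.58 (adjusted p = 0.0237).

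Type V collagen, which joins type I in the core of the fibre and limits its width, was not uniform. Col5a1 followed type I, with 3.74, 2.78 and 3.62 in whole and -0.89, -1.57 and 0.03 in depleted NP cervix, and 3.16, 2.98 and 2.68 against 2.32, 3.00 and 2.55 in D21 rats. Its interaction was -3.88 ± 0.57 (adjusted p = 0.0082). Col5a2 was lower after depletion in both: it had 4.46, 4.54 and 4.00 in whole and 1.91, 1.36 and 1.78 in depleted NP cervix, and 4.32, 3.75 and 3.85 in whole and 1.75, 2.55 and 2.85 in depleted D21 cervix. The differences were 2.65 ± 0.32 (adjusted p = 0.000103) and 1.59 ± 0.32 (adjusted p = 0.0072), and the interaction of -1.06 was not called (adjusted p = 0.229). Without D21 rats 1 and 2 the D21 difference of Col5a2 was 1.12 (adjusted p = 0.147).

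Col5a3, the third type V chain, had 1.04, 0.10 and 1.54 in whole and -0.41, -1.96 and -0.60 in depleted NP cervix. In D21 rats it had 1.06, 0.68 and 0.57 in whole and 0.58, 1.37 and 0.82 in depleted cervix, with overlap. The difference of 1.88 ± 0.45 in NP rats was called (adjusted p = 0.00833), and the interaction of -2.03 was not (adjusted p = 0.124). Between the depleted groups Col1a1 was higher in D21 rats by 3.76, Col1a2 by 4.23, Col3a1 by 2.63, Col5a1 by 3.43 and Col5a3 by 1.91, all called. None of them was called without D21 rats 1 and 2, at 3.72 for Col1a1 (adjusted p = 0.0524), 3.55 for Col1a2 (0.13), 2.62 for Col3a1 (0.119), 3.36 for Col5a1 (0.0504) and 1.81 for Col5a3 (0.276). Col5a2 differed by 0.70 there (adjusted p = 0.225).

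The remaining fibrillar genes were dim. Col27a1, which encodes a fibrillar chain best known from cartilage, was the only collagen called between whole D21 and NP cervix. It was well above background on all 3 whole NP arrays, at -2.18, -1.93 and -2.81, and on none of the whole D21 arrays, whose measured signals were -4.02, -4.38 and -4.06. The measured signals were 3.59-fold lower in whole D21 cervix (limma adjusted p = 0.019). Since the D21 signals lacked that rating, this is no measured size, and the probe was tested through the whole NP group. Over the alternatives the log2 difference ran from -2.095 to -0.375. After depletion it measured -4.12, -4.39 and -4.61 in NP rats and -3.02, -2.29 and -3.84 in D21 rats, 2 arrays of each group being well above background. The NP difference of 2.07 ± 0.37 was called (adjusted p = 0.0015). The interaction of -3.17 (adjusted p = 0.013) was called too, but it uses the whole D21 signals that were not well above background and is no measured size, and the D21 difference was not tested. The call between whole groups was lost when NP rat 8 or any D21 rat was left out and under 6 other alternatives. Col2a1 and Col24a1 were well above background on 1 array each, and the 2 probes of Col11a2 on 2 and 4 arrays, so none was tested.

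**Figure D3:**
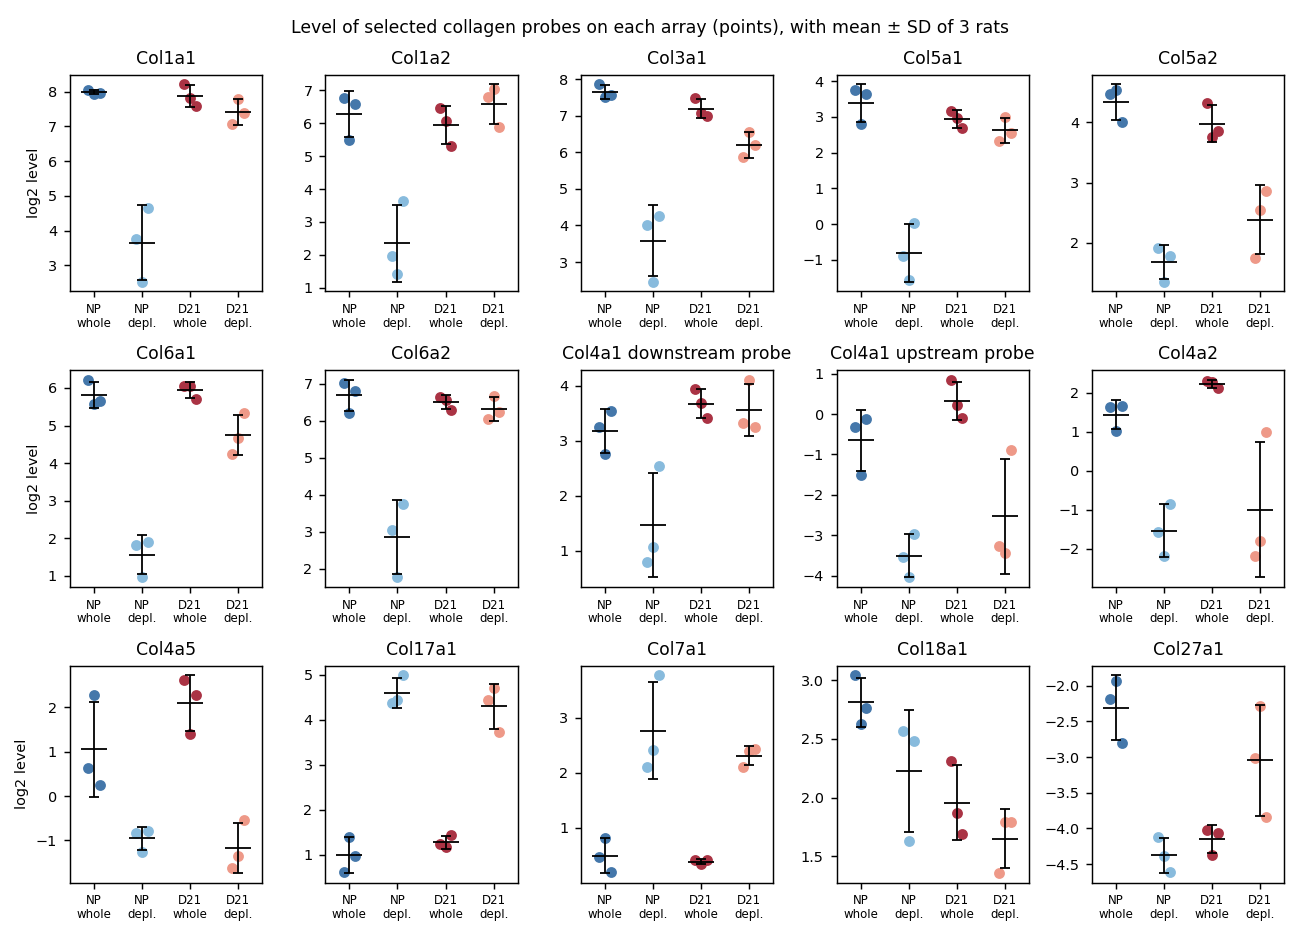
Log2 level (y axis, a scale of its own in each panel) of 15 collagen probes on each array (points), with the mean ± SD of the 3 rats of each group (bars). Col1a1, Col1a2, Col3a1, Col5a1, Col6a1 and Col6a2 are lowest in depleted NP cervix, Col4a2 and Col4a5 are low in both depleted groups, and Col17a1 and Col7a1 are high in both.

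Type VI collagen, which links fibres to cells, also differed more with Mφ removal in NP than in D21 rats. Col6a1 had 6.21, 5.58 and 5.64 in whole and 1.82, 0.97 and 1.91 in depleted NP cervix, a difference of 4.24 ± 0.34 (adjusted p = 6.86e-06). In D21 rats it had 6.06, 6.06 and 5.70 in whole and 4.25, 4.68 and 5.32 in depleted cervix, a smaller difference of 1.19 ± 0.34 that was called (adjusted p = 0.0315). Without D21 rats 1 and 2 the latter was 0.62 (adjusted p = 0.501). The interaction was -3.05 ± 0.49 (adjusted p = 0.0106), and it was -3.63 without D21 rats 1 and 2.

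Col6a2, the second chain of the same molecule, had 7.02, 6.22 and 6.81 in whole and 3.05, 1.78 and 3.75 in depleted NP cervix. In D21 rats it had 6.65, 6.57 and 6.28 in whole and 6.04, 6.66 and 6.24 in depleted cervix, with overlap. The differences were 3.82 ± 0.43 (adjusted p = 6.8e-05) and 0.19 ± 0.43 (adjusted p = 0.773). Col6a3, the third chain, was barely measured. Its probe A_64_P156965 was well above background on 5 arrays, all 3 of whole D21 cervix among them, at -2.70, -3.04 and -3.72, and it was not called in any comparison. The other Col6a3 probe was on no array, and the 2 probes of Col6a6 were on no array and on 2 arrays.

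Among collagens that sit on fibres or between basement membrane and stroma, Col16a1 and Col15a1 had called interactions. Col16a1, a chain found on fibres, had 3.47, 3.38 and 3.55 in whole and -0.10, -0.22 and 0.75 in depleted NP cervix, a 10.0-fold difference (log2 3.32 ± 0.29, adjusted p = 1.18e-05). In D21 rats it had 3.34, 2.68 and 2.71 in whole and 2.59, 2.31 and 2.39 in depleted cervix (0.48 ± 0.29, adjusted p = 0.239). Col15a1, of the zone next to the basement membrane, had a difference of 2.39 ± 0.29 in NP rats (adjusted p = 0.000128) and of -0.11 ± 0.30 in D21 rats. The interactions of Col16a1 and Col15a1 were -2.84 and -2.50 (adjusted p = 0.0078 and 0.0137). Col18a1, the parent of endostatin, was not called in any comparison, its largest difference being -0.86 in whole D21 against NP cervix (adjusted p = 0.114).

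Col14a1, which binds the surface of fibres, had probes that disagreed. The downstream probe A_64_P093189 had 1.83, 1.92 and 2.01 in whole and -0.96, -1.33 and -0.01 in depleted NP cervix. In D21 rats it had 1.36, 0.63 and 0.49 in whole and 0.36, 0.61 and 0.59 in depleted cervix, with overlap (0.31 ± 0.34, adjusted p = 0.52). The upstream probe A_64_P093194, 4518 bases away in the genome, had 1.03, 0.28 and -0.10 in whole and -2.13, -1.45 and -0.31 in depleted D21 cervix, a difference of 1.70 ± 0.46 that was called (adjusted p = 0.0258). The lowest values of this probe in D21 rats were those of rats 1 and 2, and without both the difference was 0.71 (adjusted p = 0.519). In NP rats both probes were called, at 2.69 and 3.01. In whole D21 against NP cervix the downstream probe stood at -1.09 (adjusted p = 0.0839). Col9a2 was tested but not called in whole cervix (2.81 ± 1.04, adjusted p = 0.141), with -1.16, -3.36 and -1.77 in D21 and -5.45, -3.70 and -5.58 in NP rats. Col19a1 was not called in any comparison, and Col9a1, Col9a3 and Col22a1 were not tested.

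Of type IV collagen, the basement membrane sheet, Col4a2 and Col4a5 were called higher in whole than in depleted cervix in D21 as well as in NP rats. The limma adjusted p of the 4 type IV interactions lay between 0.191 and 0.997, and 1 of them had an unadjusted p under 0.05. Col4a2 had 2.31, 2.27 and 2.12 in whole and -2.18, -1.80 and 0.99 in depleted D21 cervix, a difference of 3.23 ± 0.67 (adjusted p = 0.0087). In NP rats it had 1.64, 1.02 and 1.66 in whole and -1.57, -2.18 and -0.85 in depleted cervix, a difference of 2.97 ± 0.67 (adjusted p = 0.00613). The depleted D21 arrays were not alike, since rat 4 lay far above rats 1 and 2. Against rat 4 alone the D21 difference was 1.24 (adjusted p = 0.226).

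Col4a5, whose loss causes Alport nephritis and which is the chain the study chose for a PCR measurement, was steadier. It had 2.61, 1.40 and 2.28 in whole and -1.62, -1.35 and -0.55 in depleted D21 cervix, a 9.64-fold difference (log2 3.27 ± 0.51, adjusted p = 0.00202). In NP rats it had 0.64, 2.28 and 0.25 in whole and -0.83, -1.25 and -0.78 in depleted cervix (2.01 ± 0.51, adjusted p = 0.011). Whole NP rat 9 lay well above the other NP rats and within the range of the D21 rats. In whole cervix the D21 minus NP difference of 1.04 ± 0.51 was not called (adjusted p = 0.253). The interaction of 1.26 was not called either (adjusted p = 0.361). Against D21 rat 4 alone the D21 difference was 2.64 (adjusted p = 0.109).

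Col4a1, the partner of Col4a2, was called by 1 of its probes and not by the other in D21 rats. The upstream probe of the triple helix printed above had 0.84, 0.24 and -0.09 in whole and -3.27, -3.44 and -0.88 in depleted D21 cervix (2.86 ± 0.63, adjusted p = 0.0114). This difference was 1.21 without D21 rats 1 and 2 (adjusted p = 0.363). The downstream probe A_64_P149501 had 3.94, 3.68 and 3.42 in whole and 3.32, 4.11 and 3.26 in depleted D21 cervix, with overlap (0.12 ± 0.44, adjusted p = 0.862). In NP rats both were higher in whole cervix: the upstream probe had -0.31, -1.51 and -0.13 against -3.53, -4.02 and -2.96, and the downstream probe 3.25, 2.76 and 3.55 against 0.79, 1.06 and 2.55, with differences of 2.85 and 1.72 that were called (adjusted p = 0.00542 and 0.011). Between the depleted groups the downstream probe was higher in D21 rats by 2.09 (adjusted p = 0.0202), or by 1.79 without rats 1 and 2 (adjusted p = 0.252), and the upstream one differed by 0.97 (adjusted p = 0.382). Col4a3 and Col4a4, the chains of the kidney and lung membrane, were well above background on no array.

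Since the probes of 1 gene share its RNA, their difference was followed from array to array. For Col4a1 the upstream minus downstream level was -6.58 and -7.55 in depleted D21 rats 1 and 2 and -4.14 in rat 4, against -3.51 to -3.09 in whole D21 cervix. In NP rats it was -4.27 to -3.56 in whole and -5.50 to -4.32 in depleted cervix. For Col14a1 the corresponding D21 values were -2.49, -2.06 and -0.90 in depleted and -0.60 to -0.33 in whole cervix. For Col17a1, whose probes lie 1660 bases apart, they were -2.02, -2.32 and -0.28 in depleted and -0.28 to 0.09 in whole cervix. For Col1a1, with probes 1304 bases apart, they were 0.70, 1.13 and 1.31 in depleted and 1.55 to 1.71 in whole cervix, and the lowest array was depleted NP rat 7, at 0.04. In each of the 4 genes depleted D21 rats 1 and 2 were below every whole D21 array, as rat 4 was for Col4a1, Col14a1 and Col1a1, and in the 608 other genes their medians were the lowest of the 12. The part of this gap in the calls of Col4a1, Col4a2, Col4a5, Col5a2, Col6a1 and Col14a1 in D21 rats was not tested beyond the values without both rats.

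**Figure D4:**
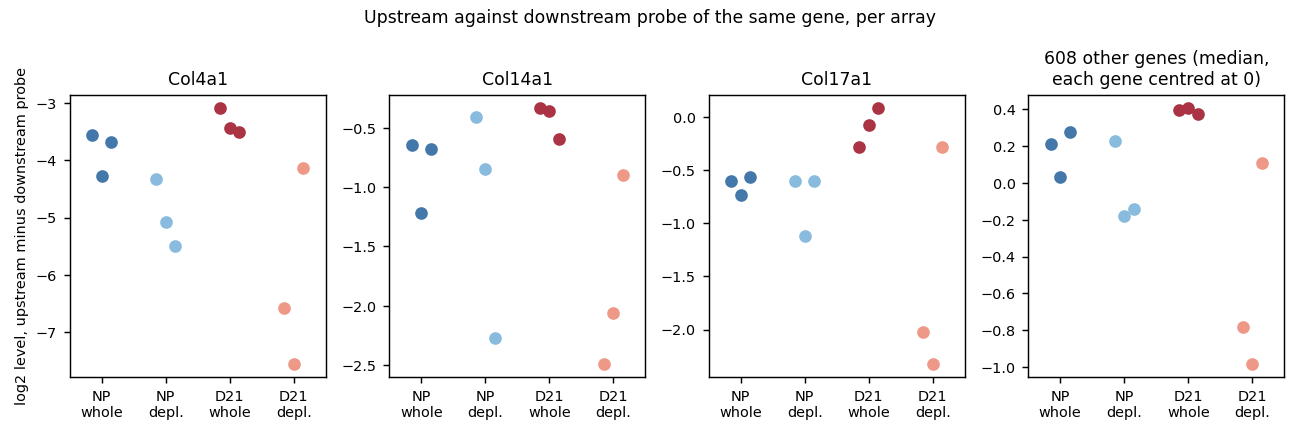
Log2 level of the upstream minus the downstream probe (y axis) of Col4a1, Col14a1 and Col17a1 on each array, and the median over 608 other genes with each gene centred at 0 on its mean over the arrays. Depleted D21 rats 1 and 2 are the lowest points for Col4a1, Col17a1 and the other genes, with medians of -0.79 and -0.98, and D21 rat 4 is not with them.

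Collagens of the epithelial anchorage ran the other way and were higher after Mφ removal in both NP and D21 rats. Col17a1 (A_42_P665039) had 1.23, 1.16 and 1.43 in whole and 4.45, 4.70 and 3.73 in depleted D21 cervix, an 8.13-fold difference (log2 -3.02 ± 0.31, adjusted p = 0.000158). In NP rats it had 0.61, 1.39 and 0.97 in whole and 4.37, 4.43 and 4.99 in depleted cervix, a 12.2-fold difference (-3.61 ± 0.31, adjusted p = 1.05e-05). Neither the interaction of 0.58 (adjusted p = 0.485) nor the whole D21 against NP difference of 0.28 (adjusted p = 0.624) was called. Its second probe was also called in both, at -1.57 ± 0.36 for D21 (adjusted p = 0.014) and -3.47 ± 0.36 for NP rats (adjusted p = 4.03e-05). Without D21 rats 1 and 2 both Col17a1 probes stayed called in D21 rats, at -2.46 and -2.27 (adjusted p = 0.011 and 0.0343).

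Col7a1, the anchoring fibril chain, moved with Col17a1. It had 0.41, 0.34 and 0.41 in whole and 2.11, 2.39 and 2.43 in depleted D21 cervix (-1.92 ± 0.37, adjusted p = 0.00619). In NP rats it had 0.47, 0.82 and 0.20 in whole and 2.11, 2.41 and 3.76 in depleted cervix (-2.26 ± 0.37, adjusted p = 0.000836). The groups did not overlap in either, and the interaction of 0.34 was not called. Against D21 rat 4 alone the D21 difference was -2.04 (adjusted p = 0.104). Of the 10 basal epithelial markers 6 were called higher in depleted NP cervix and 5 in depleted D21 cervix, and their part in the differences of Col17a1 and Col7a1 was not tested. The other transmembrane chains, Col13a1 and Col23a1, were dim. The 2 probes of Col23a1 were well above background on 3 and 4 arrays, all Mφ-depleted, and that of Col13a1 on 3.

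The short-chain network collagens were measured poorly. Col8a1, of vessel walls, had -1.47, -2.63 and -2.27 in whole D21 and -4.84, -3.46 and -4.06 in whole NP cervix, without overlap, but the difference of 2.00 ± 0.64 missed the threshold (adjusted p = 0.0908). Col8a2 and Col10a1 were well above background on no array.

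**Figure D5:**
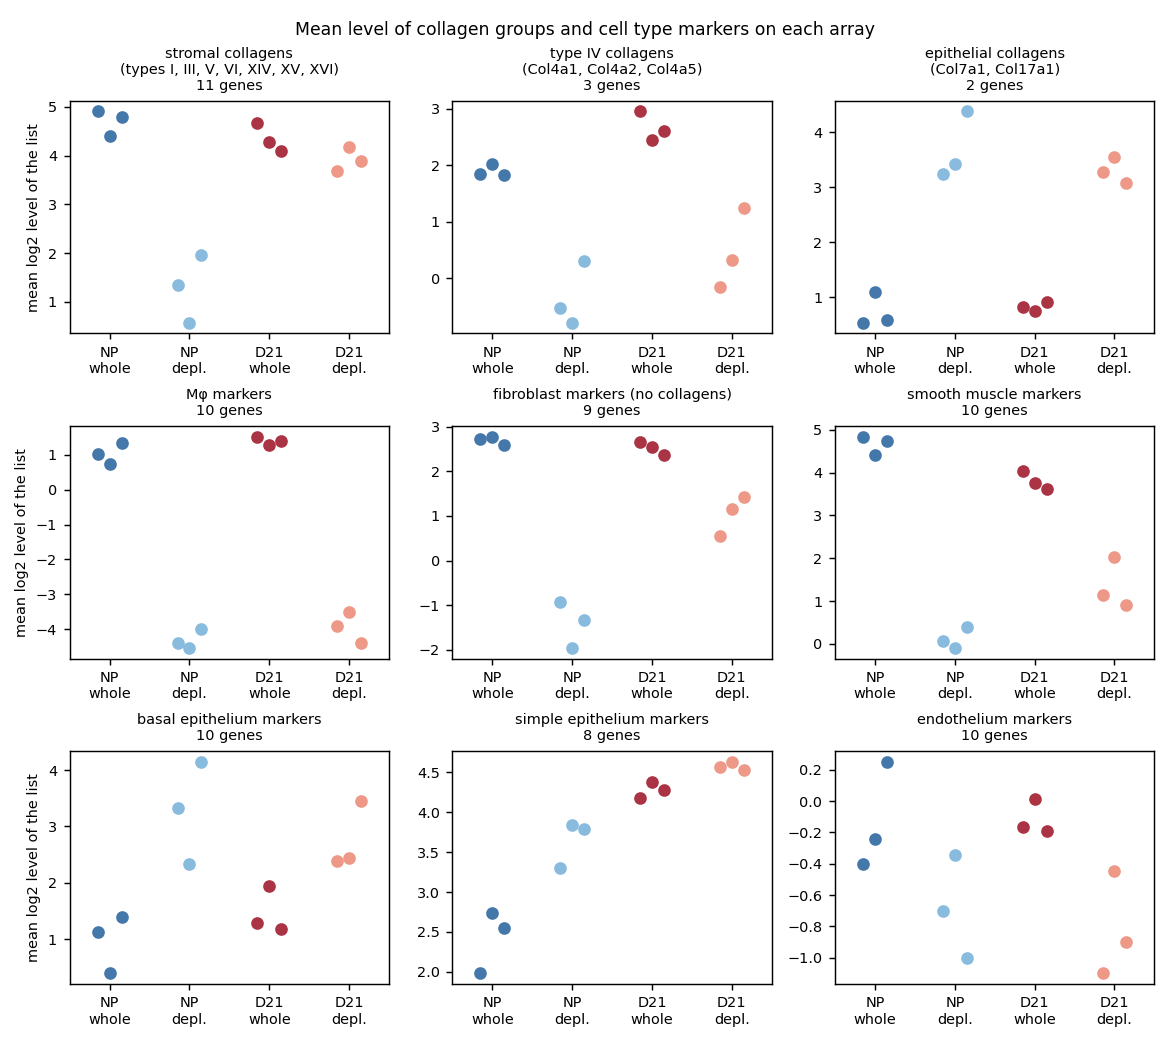
Mean log2 level (y axis, a scale of its own in each panel) of 3 groups of collagens and 6 lists of cell type markers on each array, with the brightest probe of each gene. Stromal collagens and the fibroblast and smooth muscle markers are lowest in depleted NP cervix, and the epithelial collagens and basal epithelial markers are high in both depleted groups.

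Enzymes and partners of collagen synthesis were read with the chains. Of 17 genes tested that modify or fold the new chain, 12 were called higher in whole than in depleted NP cervix and 1 lower, where 16.7% and 15.3% of all probes were. The 4 with the largest differences were Plod2, a lysyl hydroxylase (4.53 ± 0.44), Fkbp14 (4.03), Fkbp10 (3.45) and Serpinh1, the collagen chaperone (2.90 ± 0.33). The gene that was lower was P3h2, a prolyl 3-hydroxylase (-1.83). In D21 rats 2 were higher, Fkbp10 (1.94) and Fkbp14 (1.83), a share near the 13% of all probes. The interaction was called for Plod2 (-3.57, adjusted p = 0.0159) and Serpinh1 (-2.40, adjusted p = 0.0261), where 1.83% of all probes were called in that direction. Plod2 had 4.53, 3.18 and 3.84 in whole and -0.68, -1.35 and -0.02 in depleted NP cervix, and 3.20, 2.49 and 2.08 against 1.20, 1.98 and 1.70 in D21 rats. The median difference of the 17 genes was 1.34 in NP and 0.19 in D21 rats.

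Of 10 genes tested that trim, lay down or cross-link collagen 7 were called higher in NP rats in whole than in depleted cervix, where 16.7% of all probes were, led by Loxl2 (5.14 ± 0.88), Lox (5.01 ± 0.48), the procollagen protease Adamts2 (4.21) and Pcolce, which enhances removal of the C-propeptide (3.75). In D21 rats 4 of 11 were called higher, where 13% of all probes were: Lox (1.89), Loxl1 (1.79), Adamts2 (1.79) and Loxl3 (1.59). The cross-linking enzyme Lox had 0.94, 0.60 and 1.90 in whole NP cervix and 0.43, 0.77 and 0.18 in whole D21 cervix, and -4.12, -4.48 and -2.98 against -2.20, -1.33 and -0.77 after depletion. The interaction was called for Adamts2, Lox, Pcolce and Sparc, 4 of 11 tested, where 1.83% of all probes were called in that direction. These interactions lay between -3.47 for Pcolce and -2.42 for Adamts2.

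In whole cervix Ddr1, the epithelial collagen receptor, was higher in D21 than in NP rats (2.25 ± 0.42, adjusted p = 0.0141), and Ddr2, its stromal relative for fibrillar collagen, was lower (-1.38 ± 0.36, adjusted p = 0.0456). They were the 2 called of 6 receptors tested, where 4.02% of all probes were called higher and 1.76% lower. Ddr1 had -0.49, -0.12 and -0.28 in D21 and -2.97, -2.17 and -2.51 in NP rats, without overlap. Ddr2 had -1.90, -2.36 and -2.55 in D21 and -0.82, -0.84 and -1.01 in NP rats. After depletion in NP rats Ddr1 was higher (whole minus depleted -2.13) whereas Ddr2 (3.30), Itgb1 (0.98) and Mrc2, the endocytic collagen receptor (4.42), were lower, all called. Of 5 receptors tested there, 3 were thus called higher in whole cervix and 1 lower, where 16.7% and 15.3% of all probes were. In D21 rats Mrc2 (1.57) and Itgb1 (0.80) were called higher in whole cervix, 2 of 6 tested, where 13% of all probes were. The interactions of Ddr1 (2.57, adjusted p = 0.0495), Ddr2 (-3.45, adjusted p = 0.0082) and Mrc2 (-2.85, adjusted p = 0.00715) were called. Of 6 tested, 1 was thus called higher and 2 lower, where 0.513% and 1.83% of all probes were. Without D21 rats 1 and 2, which leaves 1 depleted D21 array, far fewer of all probes were called. Most calls of these 3 groups of genes were then lost, and in whole against depleted D21 cervix all of them. Among the interactions, that of Ddr2 was then -2.67 and that of Adamts2 -3.30.

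Markers of the other cells were counted in the same fits, in which 16.7% of all probes were called higher and 15.3% lower in whole NP cervix, 13% and 10% in whole D21 cervix, and 1.83% lower in the interaction. Of 9 fibroblast markers 8 were called higher in whole NP cervix than after depletion and 4 in D21 rats, and the interaction was called for 5. For smooth muscle 10 of 10 were called in NP and 7 in D21 rats, with 5 interactions. For endothelium 4 of 9 were called higher and 1 lower in NP rats and 4 of 10 higher in D21 rats. The calls in D21 rats without rats 1 and 2 were 3 for fibroblast, 10 for smooth muscle and 0 for endothelial markers. All 7 immediate-early genes tested, such as Fos, were higher in depleted cervix in NP and in D21 rats. In whole cervix 7 of 8 markers of simple epithelium were called higher in D21 than in NP rats, where 4.02% of all probes were. Of these 8 markers 6 were called lower in whole than in depleted NP cervix, and in D21 rats 3 were lower and 1 higher. The part of these markers in the collagen differences was not tested.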

How the data were processed

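For every spot the authors deposited a background-subtracted intensity from the scanner (Feature Extraction 9.5.3.1), not normalized between arrays. Their second table, of ratio values, holds these intensities relative to each array's 75th percentile. Control spots and spots marked as outliers were left out, spots of a probe were averaged, and the log2 of the 75th percentile was subtracted from each log2 intensity. Each array held 42877 spots other than controls, 294 to 648 of them marked, and 44.9% to 61.8% of the probes were well above background. The number of arrays limits the precision. Names are those of the array files, and accessions of 17328 of 30367 probes matched RefSeq.

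Group means over all 12 arrays were fitted by lmFit and eBayes of limma 3.58.1 (R 4.3.3), for 4 comparisons of groups and their interaction, on all probes that passed the background filter, and p-values were adjusted by the Benjamini-Hochberg method. Python 3.11.15 with pandas 2.3.3, numpy 2.4.6 and matplotlib 3.10.9 made the summaries and plots. The fit was tested on simulated data. For a gene with several probes the brightest spoke for the gene, and probes that disagreed were named. Every collagen gene on the array was named. Values for each array were given for types I, III, IV, V, VI, VII and XVII and for the 5 largest called differences in each direction. Of the other lists the called genes were named, at most 4 for each comparison and direction, and others only with a value the text turns on. The members, lists and tests were chosen with earlier results of these data known.

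The alternatives were the study's threshold (an unadjusted p under 0.01 and a 2-fold difference), the methods' t-test at that threshold or adjusted, a limma fit of only the 2 groups in question, quantile normalization, normexp (offset 50), a percentile taken over fully detected probes, other filters on dim probes, a block for slide or for scan day, the ratio table of the authors, and omission of 1 rat at a time. Leaving out D21 rats 1 and 2 together was added after seeing the data.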

Additional observations from a re-analysis of the deposited data

Results flagged for a closer look

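The whole minus depleted difference of 10 collagen probes differed between D21 and NP rats by the interaction test of limma at an adjusted p under 0.05. The interaction was -4.56 for Col1a2, -3.88 for Col5a1, -3.86 for Col1a1, -3.64 for Col6a2, -3.17 for Col27a1, -3.08 for Col3a1, -3.05 for Col6a1, -2.84 for Col16a1, -2.50 for Col15a1 and -2.38 for the downstream probe of Col14a1, on the log2 scale. In each the difference was larger in NP rats. Col27a1 was not well above background in whole D21 cervix, so its value is no measured size. The range of the fibroblast and smooth muscle markers on the depleted arrays differed between NP and D21 rats as well, and the part of either in these values was not tested.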

How the results depend on the processing

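Of 992 values of called collagen probes under the alternatives, 790 kept their direction and threshold, 202 kept their direction alone and none turned. The alternatives refit the same arrays on probes chosen for their calls, so a kept direction is no separate evidence. Probes that failed the filter of an alternative were not counted there. No paired analysis was possible because the groups compared hold different rats and share fewer than 2 rat numbers. Counts of called collagen probes are given as higher and lower in the first group. Apart from the fits without D21 rats 1 and 2, the share of all probes called was not counted for the alternatives. A changed count is thus no result about collagens in particular. For whole D21 against NP cervix, 0 and 1 in the report, the study's threshold gave 1 and 2, limma on the arrays compared 3 and 3, and scan day as a block 1 higher, while the methods' t-test with adjustment, normexp, quantile normalization, no filter, the filter on every array and slide as a block each gave 0 lower. For whole against depleted D21 cervix, 6 and 3 in the report, the methods' t-test gave 1 higher at the study's threshold and 0 and 0 with adjustment, normexp gave 1 lower, scan day as a block 1 higher, slide as a block 0 and 0, and leaving out D21 rats 1 and 2 together 0 higher. For whole against depleted NP cervix, 18 and 3, the methods' t-test gave 9 higher at the study's threshold and 5 with adjustment. For depleted D21 against NP cervix, 11 and 0, the methods' t-test gave 3 and 0 higher, limma on the arrays compared 6, and leaving out D21 rats 1 and 2 together 1. For the interaction, 0 and 10, the study's threshold and scan day as a block gave 1 higher, while normexp gave 3, no filter 6, slide as a block 0 and leaving out D21 rats 1 and 2 together 1 lower. Leaving out D21 rats 1 and 2 together leaves 1 depleted D21 array, and far fewer of all probes were called in those fits. The cause was not tested.

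Leaving out 1 rat at a time gave 0 to 1 higher and 0 to 1 lower for whole D21 against NP cervix, with 1 higher without NP rat 9 and 0 lower without NP rat 8 or D21 rat 5, 6 or 7. It gave 3 to 6 and 2 to 5 for whole against depleted D21 cervix, with 3 higher without depleted D21 rat 1 or 2 and 5 lower without rat 4. It gave 18 and 3 to 5 for whole against depleted NP cervix, with 5 lower without depleted NP rat 7. It gave 8 to 15 and 0 to 1 for the depleted groups, with 1 lower without D21 rat 4, and 0 to 1 and 5 to 12 for the interaction, with 5 lower without whole D21 rat 7 and 1 higher without depleted D21 rat 4. Dim probes limit what can be said of 20 collagen probes that were tested in no comparison.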
